A study of Rattus norvegicus with 4 samples.

Results

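The cells described here passed a macrophage gate set on cells of rat fascia and carried at least 3 molecules of Mmp12 RNA. They were 108 of the 11711 cells of that gate, of 34904 cells that passed quality control and of 38282 deposited cells. A cell entered the gate when C1qa, C1qb, C1qc, Cd68 and Lyz2 together reached 20 unique molecular identifiers (UMIs, counted molecules) per 10,000 and the T cell genes Cd3d, Cd3e and Cd3g summed to 0. The Mmp12-high cells had 3 or more raw Mmp12 UMIs, and the cells they are set against came from the same gate and libraries with Mmp12 at 0. The cells were thus chosen by their measured Mmp12 UMIs, and every difference between the sets is given as a description with no test.

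Macrophages are phagocytes that take up debris and shape the matrix of connective tissue. Mmp12, also called macrophage elastase, is a secreted metalloproteinase that macrophages make and that cleaves elastin and other matrix proteins. Macrophages that live in fascia at steady state are known for Lyve1, Mrc1, Cd163 and Folr2, and newly arrived ones descend from Ccr2-bearing monocytes.

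The study asked how fascia cells at acupuncture points respond to acupuncture in rats made dysenteric with Salmonella. Cells of abdominal midline fascia, labelled as subcutaneous, were digested with collagenase and elastase, cleared of dead and red blood cells and measured by droplet RNA sequencing at the 3' end. There were 2 libraries of dysentery without acupuncture and 2 of dysentery followed by acupuncture, so all groups shared the infection and no uninfected library was among them. The labels give no strain, age, day or number of animals per library, and a p-value here may therefore rest on technical spread between libraries.

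Groups follow the titles, with which the descriptions and the design text go. In each of the 4 libraries the treatment entry gives the other group, so every direction between groups rests on the titles. The 4 libraries held 53066666 to 93897006 UMIs in 7965 to 11327 cells, with 5539 to 8758 UMIs in the median cell. Pairs of libraries shared 19 to 32 cell barcodes, and no barcode of an Mmp12-high cell was Mmp12-high in another library. Dysentery replicate 1 had the lowest depth over all its cells. In its gate 31.0% of the cells with Mmp12 at 0 reached 20 C1q UMIs per 10,000. That share was 39.4% in dysentery replicate 2 and 70.8% and 69.5% with acupuncture, so it differed mainly between the groups.

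Mmp12 (ENSRNOG00000030187) is shown with the 250 bases before its transcription start, since it is the gene that sets these cells apart. The sequence is RefSeq's in build GRCr8, chr8:12866402-12866651 on the + strand. That build is not the mRatBN7.2 build that the submitters' processing notes name without a role. Capitals mark the letters TGANTCA, the form of an AP-1 site, for which both strands were searched (the motif reads the same on each).
Mmp12: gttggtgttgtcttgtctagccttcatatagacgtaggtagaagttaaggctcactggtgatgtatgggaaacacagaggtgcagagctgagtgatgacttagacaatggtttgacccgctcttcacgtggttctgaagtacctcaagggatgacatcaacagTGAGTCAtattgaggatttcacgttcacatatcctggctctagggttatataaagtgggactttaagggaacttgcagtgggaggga
The match lay 87 to 81 bases before the start. Of 33469 promoters in the table, 6.34% held the motif in the same 250 bases. None of the 12 genes with a promoter in the table among the 15 highest genes described later held it. A match is a run of letters and was not tested as a binding site.

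Mmp12-high cells were unevenly spread over the libraries. Dysentery replicate 1 held 79 of its 1842 gated cells, or 4.29% (95% Clopper-Pearson interval 3.41 to 5.32%). Acupuncture replicate 1 held 19 of 2992, or 0.635% (0.383 to 0.990%). Acupuncture replicate 2 held 10 of 3901, or 0.256% (0.123 to 0.471%). Dysentery replicate 2 held 0 of 2976, which allows a share of up to 0.101% (3 cells). Thus 73.2% of all Mmp12-high cells came from 1 library, and the other dysentery library was below both acupuncture libraries.

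The mean share was 0.446% ± 0.268 with acupuncture and 2.14% ± 3.03 with dysentery alone (SD, n = 2 libraries each). The difference of -1.70 percentage points was smaller than the spread between the dysentery libraries (two-sided exact permutation test, p = 1.0, with 0.333 the smallest possible). Without dysentery replicate 1 it turned to 0.446 points. Intervals of shares and levels here cover counting error only.

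**Figure D1:**
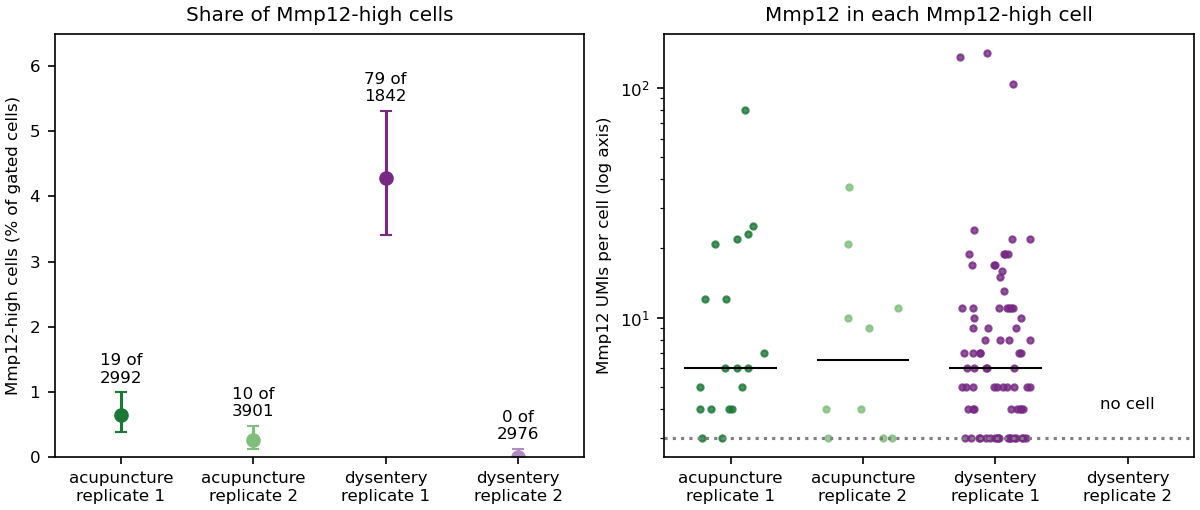
Left, Mmp12-high cells as a percent of gated cells in each library, with 95% Clopper-Pearson intervals. Right, Mmp12 UMIs of each Mmp12-high cell on a log axis, with a line at each median and a dotted line at the threshold of 3 UMIs. Dysentery replicate 1 stands at 4.29% and dysentery replicate 2 holds no cell, while the medians of the 3 other libraries lie at 6 to 6.5 UMIs.

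The threshold that chose the cells also bounds their Mmp12 counts, which are given as a description. The median was 6 UMIs in dysentery replicate 1, 6 in acupuncture replicate 1 and 6.5 in acupuncture replicate 2, as the plot of single cells shows. The highest cells had 142, 80 and 37 UMIs. Just inside the threshold, 18, 2 and 3 cells of these libraries had exactly 3 UMIs. Just outside it, 18, 2 and 0 cells had 2 UMIs and 23, 5 and 6 had 1, and dysentery replicate 2 had 1 cell of each kind.

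Since the cells were chosen for their Mmp12, the share of its RNA that they hold is a description too. Of 1090 Mmp12 UMIs in the whole of dysentery replicate 1, 90.4% were in its Mmp12-high cells, as were 86.6% of 291 and 94.6% of 111 in the acupuncture libraries. Dysentery replicate 2 had 7 Mmp12 UMIs in all.

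Summed over all gated cells, Mmp12 stood at 9.41 and 2.60 CPM (the gene's UMIs scaled to a common library total) with acupuncture and at 65.0 and 0.122 CPM with dysentery alone. The groups overlapped, with dysentery libraries at both ends. The log2 difference, acupuncture minus dysentery, was -2.42 ± 1.97 (SE; edgeR quasi-likelihood test, Benjamini-Hochberg adjusted p = 0.502). Of 12992 genes in that fit, 1.89% were called higher and 0.716% lower at an adjusted p under 0.05. Without dysentery replicate 1 the Mmp12 difference turned to 5.59 (adjusted p = 0.0614, edgeR), and over all alternatives the adjusted p ran from 0.0614 to 0.873.

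The macrophage genes Csf1r and Aif1, which the gate did not use, were found in most of these cells, Adgre1 was low, and 2 of the 3 marker genes given for them, Fabp4 and Lpl, were rare. Csf1r, the receptor for the macrophage growth factor Csf1, was found in 97 of the 108 cells. Aif1, a calcium-binding protein of macrophages, was found in 79 of 79, 19 of 19 and 9 of 10 cells of dysentery replicate 1 and the acupuncture libraries. Thinned to 2000 UMIs, Csf1r was in 60.8% of Mmp12-high cells against 48.4% in dysentery replicate 1, but in 33.3% against 74.1% and 55.6% against 72.7% in the acupuncture libraries, with 18 and 9 Mmp12-high cells left. Adgre1, the gene of the macrophage antigen F4/80, was lower in all 3 libraries, at 67.4 against 189 CPM in dysentery replicate 1 (counts scaled to a common library total), 41.9 against 267 and 36.8 against 242. Fabp4, a fatty acid carrier, was found in 16 of the 108 cells, and Lpl, the lipase that frees fatty acids from lipoproteins, in 11. Neither was found in 85 of the 108. In dysentery replicate 1, Lpl was in 6.33% of Mmp12-high cells and 36.7% of cells with Mmp12 at 0, and Fabp4 in 13.9% and 10.6%. The cells are therefore named by Mmp12 alone.

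Ratios of summed UMIs were taken in dysentery replicate 1, the only library with the 20 Mmp12-high cells required. They are log2 ratios of CPM with 10 CPM added, Mmp12-high over Mmp12 at 0, over 7956 genes at 10 CPM or more in either set. Of these, 546 genes (6.86%) stood 2-fold or more higher and 414 (5.2%) 2-fold or more lower. The acupuncture libraries, with 19 and 10 cells, are given side by side. In all 3 libraries, 77 genes were 2-fold or more higher and 99 lower. With 1 library there is no replicate check. Of 13 macrophage identity genes, 2 were 2-fold higher and 1, Adgre1, was 2-fold lower in dysentery replicate 1 (median log2 ratio 0.12, against 0.05 over all genes).

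Plau and Acp5 stood furthest above the other gated cells. Plau encodes urokinase, the secreted protease that turns plasminogen into plasmin. It stood at 1708 CPM (Poisson 95% interval 1617 to 1804) in the Mmp12-high cells of dysentery replicate 1 and at 35.1 CPM with Mmp12 at 0, 38.1-fold higher with 10 CPM added to both. In the acupuncture libraries it stood at 1974 against 17.3 CPM and at 322 against 23.2 CPM. Acp5, tartrate-resistant acid phosphatase, is a lysosomal enzyme of osteoclasts and some macrophages. It stood at 1749 CPM (1656 to 1846) against 57.4 CPM in dysentery replicate 1, 26.1-fold higher on the same scale. In the acupuncture libraries it stood at 973 against 19.8 and 1021 against 22.9 CPM. Both were higher in Mmp12-high cells of every library that had them.

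Nearly every Mmp12-high cell carried Acp5. A UMI of it was found in 79 of 79 cells of dysentery replicate 1, 19 of 19 and 8 of 10 in the acupuncture libraries, against 20.3% of cells with Mmp12 at 0 in dysentery replicate 1. Depth did not favour the Mmp12-high cells there, with 5126 UMIs in the median cell against 8412. After each cell was thinned to 2000 UMIs, leaving out 5 shallower Mmp12-high and 160 other cells, Acp5 was in 97.3% (90.6 to 99.7%) against 6.47%. Plau was in 77.0% against 3.59%, Cx3cr1 in 54.1% against 3.33% and Tmem119 in 46.0% against 1.15%. In dysentery replicate 2, whose gate had no Mmp12-high cell, thinned cells carried Acp5 in 2.93%, Plau in 1.38% and Tmem119 in 0.0353%.

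Genes of the cell surface were also among the 15 highest. Cx3cr1, the receptor of the chemokine fractalkine, stood at 307 CPM against 18.3 in dysentery replicate 1, and at 186 against 4.08 and 156 against 3.92 in the acupuncture libraries. Fcgr3a, a receptor for the constant part of IgG, stood at 665 against 35.7 CPM, 209 against 20.1 and 469 against 19.0. Tmem119, a membrane protein used as a marker of brain microglia, stood at 223 against 4.45 CPM, 51.2 against 0.801 and 147 against 0.705. It was found in 49 of 79, 6 of 19 and 5 of 10 cells. All 3 of these genes were past 2-fold in each of the 3 libraries.

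Other genes of that set act in signalling and secretion. Pmepa1, a membrane protein that is induced by and restrains TGF-beta signalling, stood at 468 against 10.9 CPM in dysentery replicate 1, 279 against 8.12 and 230 against 5.66. Rgs1, which dampens signalling by G protein-coupled receptors, stood at 3755 against 169 CPM, and in the acupuncture libraries, where it was in 31.7 and 46.2% of cells with Mmp12 at 0, at 2304 against 334 and 1766 against 364. Golm1, a Golgi membrane protein, stood at 303 against 15.6 CPM, 223 against 5.86 and 147 against 5.92. The chemokine gene Ccl4 stood at 2092 against 148 CPM, 703 against 189 and 515 against 238. Of the 15 highest genes, these 9 (Plau, Acp5, Cx3cr1, Fcgr3a, Tmem119, Pmepa1, Rgs1, Golm1 and Ccl4) were past 2-fold in all 3 libraries.

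The other 6 were not. Ch25h, the enzyme that makes 25-hydroxycholesterol, stood at 179 against 3.98 CPM in dysentery replicate 1, at 14.0 against 12.0 in acupuncture replicate 1 and at 0 against 17.0 in acupuncture replicate 2. Spp1, the secreted phosphoprotein osteopontin, stood at 5502 against 244 CPM, 791 against 2.15 and 0 against 1.41. The cathepsin genes Ctsk and Ctsd, the tetraspanin gene Cd9 and Rgcc, named as a regulator of the cell cycle, also failed to pass 2-fold in acupuncture replicate 2.

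**Figure D2:**
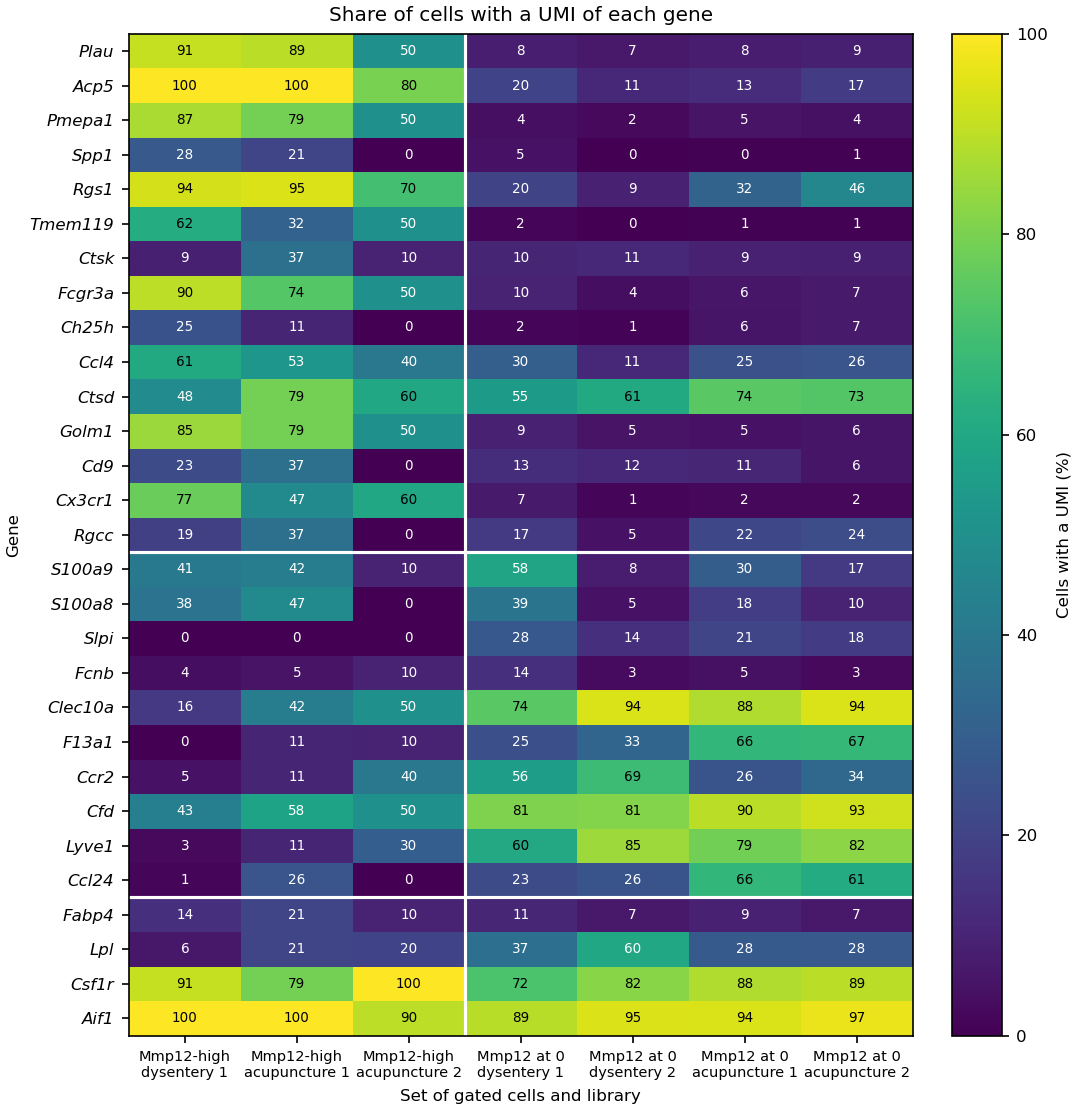
Percent of cells with at least 1 UMI of each gene (rows) in the Mmp12-high cells of 3 libraries and in the cells with Mmp12 at 0 of all 4 (columns). The upper block holds the 15 genes with the highest ratios, the middle block the 10 lowest, and the lowest block the markers Fabp4 and Lpl with Csf1r and Aif1. Acp5 is in 80 to 100% of Mmp12-high cells and 11 to 20% of the others.

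The heat map of shares separates genes carried by most Mmp12-high cells from genes carried by few. Spp1, with 5502 CPM, was in 22 of the 79 cells, Ctsk in 7, Rgcc in 15 and Cd9 in 18. A few cells with very many molecules held most of such sums. In dysentery replicate 1, 5 cells had over 30000 UMIs (40042 to 91800) and gave 41.5% of the summed UMIs. They gave 97.7% of the Spp1 UMIs and none of the Tmem119 or Cx3cr1 UMIs.

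The cells over 30000 UMIs, 5 here and 1 in acupuncture replicate 1, were chosen after their values were seen. Each of the 6 carried Spp1 (38 to 2661 UMIs), Fabp4 (23 to 257), Gpnmb, a lysosomal glycoprotein (71 to 376), Trem2, a lipid-sensing receptor (36 to 183), and Ctsd (132 to 1075). Their Mmp12 ran from 4 to 142 UMIs. In the 5 cells of dysentery replicate 1, Cd74, the invariant chain of MHC class II, had 3 to 17 UMIs, against a median of 97 over that library's Mmp12-high cells. The cell of acupuncture replicate 1 had 503. Of the 6 cells, 4 were among the highest doublet scores (Scrublet), and whether they are single cells was not tested.

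Without the cells over 30000 UMIs in either set, 10 of the 15 highest genes stayed past 2-fold in dysentery replicate 1. Over the same 7956 genes, 677 were then 2-fold higher and 478 lower. Plau stood at a log2 ratio of 5.84, Acp5 at 5.09, Rgs1 at 5.06, Tmem119 at 4.76 and Cx3cr1 at 4.23. The others lost their place. Spp1 went from 4.44 to -0.20, Ctsk from 3.93 to -0.53, Ctsd from 3.66 to -0.29, Cd9 from 3.51 to 0.69 and Rgcc from 3.46 to 0.77. Fabp4 went from 1.51 to -1.46 and Lpl from -0.57 to -2.28. Thus the 2 markers were lower, not higher, in the remaining 74 Mmp12-high cells.

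**Figure D3:**
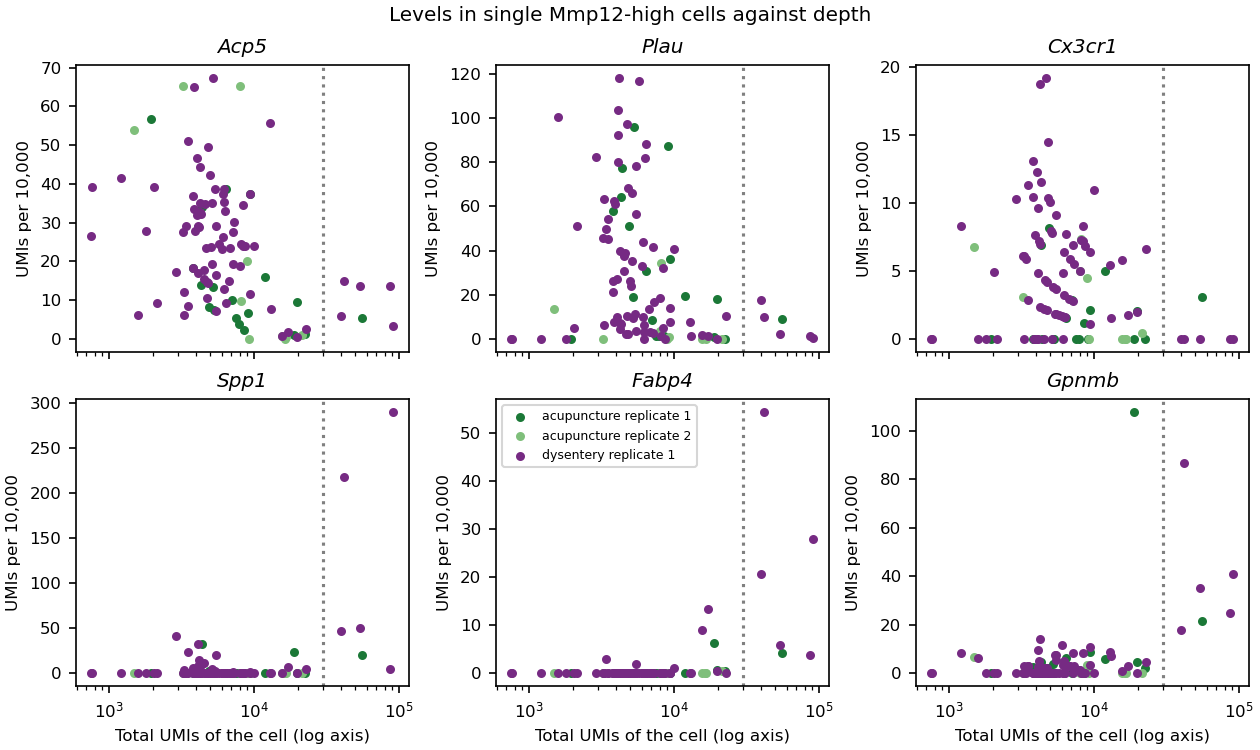
UMIs per 10,000 of 6 genes in each Mmp12-high cell (vertical axes) against the cell's total UMIs (log axis), coloured by library, with a dotted line at 30000 UMIs. Acp5, Plau and Cx3cr1 are highest in cells under 30000 UMIs, while Spp1, Fabp4 and Gpnmb are highest in cells over it, apart from 1 cell of acupuncture replicate 1 high for Gpnmb.

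The remaining 102 cells fell into 3 kinds by values that were seen before they were set. In 8 cells of at most 30000 UMIs the C1q sum was under 20 per 10,000, and all 8 carried Clec10a, a lectin of dendritic cells and some macrophages (4 to 60 UMIs). They held 3 to 9 Mmp12 UMIs, and Tmem119 was in none. Of these, 5 were in acupuncture replicate 2, 1 in acupuncture replicate 1 and 2 in dysentery replicate 1, and Flt3, a receptor of the dendritic lineage, was in 4 of the 8. Another 3 cells, all of acupuncture replicate 1, had mitochondrial shares under 1%, 3 or 4 Mmp12 UMIs, 25 to 46 UMIs of the collagen gene Col1a1 and doublet scores among the highest.

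The other 91 cells carried the shared genes. Acp5 was in 91 of 91, Plau in 82, Rgs1, Fcgr3a and Golm1 in 83 each, Pmepa1 in 80, Cx3cr1 in 71 and Tmem119 in 60. In acupuncture replicate 2, where 5 of 10 cells were of this kind, each of those 5 carried Acp5, Cx3cr1, Tmem119, Pmepa1, Fcgr3a and Golm1. Of the 5 Clec10a-bearing cells there, 3 carried Acp5 and 1 carried Cx3cr1. Those Clec10a-bearing cells had 9180 to 21365 UMIs each, against 1483 to 8921 in the 5 cells of the shared kind. They therefore weigh more in every sum given for acupuncture replicate 2. Fabp4 was in 6 of the 91, and Lpl in 3.

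**Figure D4:**
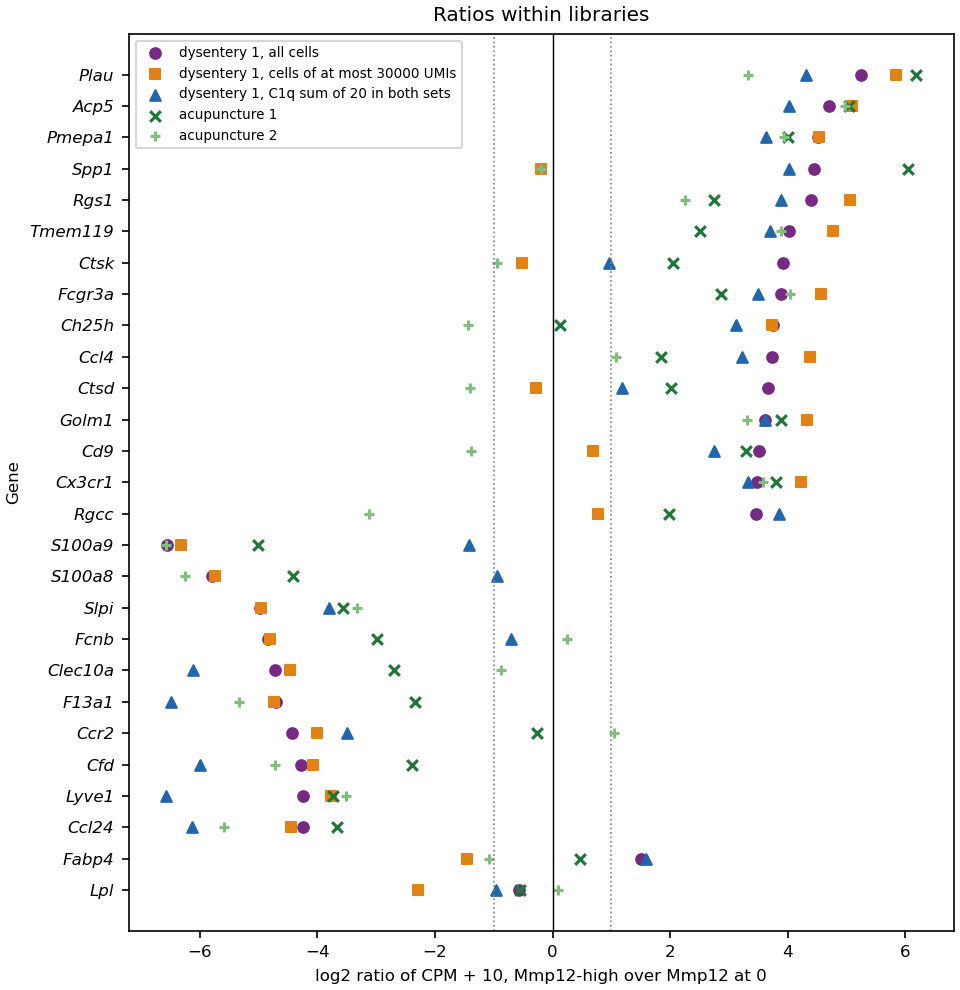
Log2 ratio of CPM with 10 CPM added, Mmp12-high over Mmp12 at 0, for the 15 highest and 10 lowest genes and the markers Fabp4 and Lpl, in dysentery replicate 1 (all cells, without cells over 30000 UMIs, and with a C1q sum of 20 in both sets) and in both acupuncture libraries. Dotted lines mark 2-fold, and Spp1, Ctsk and Ctsd change side without the largest cells while Plau, Acp5 and Tmem119 do not.

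Genes of neutrophils and monocytes were among the 10 lowest, by an amount that changed with the cells compared. S100a9 and S100a8, the subunits of calprotectin, stood at 75.4 and 66.1 CPM in the Mmp12-high cells of dysentery replicate 1 and at 8021 and 4201 CPM with Mmp12 at 0. The levels with Mmp12 at 0 ran from 1483 to 8021 CPM for S100a9 over the 4 libraries, with dysentery replicate 1 highest. With a C1q sum of 20 in both sets, the log2 ratio of S100a9 went from -6.56 to -1.42, that of S100a8 from -5.79 to -0.95 and that of Fcnb, a ficolin of myeloid cells, from -4.84 to -0.70. Of 9 neutrophil marker genes, 8 were 2-fold lower than in all gated cells with Mmp12 at 0. With a C1q sum of 20 in both sets, 1 was 2-fold lower. Slpi, a secreted inhibitor of leukocyte proteases, had no UMI in any Mmp12-high cell of the 3 libraries, and stood at 304 CPM with Mmp12 at 0 in dysentery replicate 1, so it was at least 76.6-fold lower there (floor of 3 counts over the 79 cells, no CPM added). Ccr2, the chemokine receptor of arriving monocytes, stood at 14.5 against 517 CPM in dysentery replicate 1, 195 against 237 in acupuncture replicate 1 and 442 against 210 in acupuncture replicate 2. Its direction in these sums was thus not shared by the libraries. In cells thinned to equal depth, Ccr2 was in 1.35% against 43.85% in dysentery replicate 1. It was in 0 of 18 cells against 18.1% in acupuncture replicate 1. In acupuncture replicate 2 it was in 1 of 9 against 20.55%. The acupuncture intervals, 0 to 18.5% and 0.281 to 48.25%, included the share with Mmp12 at 0. Without thinning, acupuncture replicate 2 had it in 4 of 10 cells against 33.7%.

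Genes of resident macrophages were low as well. Lyve1, a hyaluronan receptor, stood at 14.5 against 458 CPM in dysentery replicate 1, 55.9 against 865 and 64.4 against 838 in the acupuncture libraries. F13a1, coagulation factor XIII chain A, had no UMI in the 79 cells and 252 CPM with Mmp12 at 0, at least 63.5-fold lower. Ccl24, a chemokine that draws eosinophils, had 1 UMI in the 79 cells and its level with Mmp12 at 0 was 155 times that, a plain ratio with no CPM added (counting interval 27.8 to 6123), or 19.0 times with 10 CPM added. Clec10a stood at 45.0 against 1444 CPM, 363 against 2424 and 1187 against 2194. Cfd, complement factor D, stood at 101 against 2145 CPM, 1108 against 5866 and 193 against 5323. Of the 10 lowest genes, 7 were past 2-fold lower in all 3 libraries, and Fcnb, Clec10a and Ccr2 were not. In acupuncture replicate 2 every Clec10a UMI lay in the 5 cells with a C1q sum under 20 (6 to 60 UMIs each). The other 5 cells had 0.

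The list of resident macrophage genes was mostly lower. Of 17 members at the level filter, 0 were 2-fold higher and 11 were 2-fold lower, with a median log2 ratio of -1.76 (-1.95 with genes at 0 set at their bound) against 0.05 over all genes. Cd163, a haemoglobin scavenger receptor, had 1 UMI in the 79 cells and 133 CPM in the others. Mrc1, the mannose receptor, stood at 91.2 against 559 CPM, and Selenop, a selenium carrier, at 495 against 2713. Folr2, a folate receptor, stood at 270 against 472 CPM. With a C1q sum of 20 required in both sets, all 17 were 2-fold lower, with a median of -4.03. Over all 7956 genes that comparison gave 691 higher and 450 lower.

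C1q itself belongs to the gate and is given as a level only. C1qa stood at 3380 CPM in the Mmp12-high cells of dysentery replicate 1, against 2332 in all gated cells with Mmp12 at 0 and 8199 in those with a C1q sum of 20. In the acupuncture libraries it stood at 3891 against 6245 and 2143 against 5626 CPM. Of Mmp12-high cells, 94.9% reached the C1q sum of 20 in dysentery replicate 1, 94.7% in acupuncture replicate 1 and 50.0% in acupuncture replicate 2. In dysentery replicate 1 most of the cells they are set against did not reach it.

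Monocyte and dendritic cell genes were mostly lower. Of 21 monocyte genes, 13 were 2-fold lower and 1, Cx3cr1, was 2-fold higher (median -1.61). Plac8 stood at 126 against 1221 CPM and Hp at 0 against 104. Of 14 dendritic cell genes, 8 were lower and 2 higher (median -1.31, or -1.66 with genes at their bound). The 2 higher ones were Cd83, an activation marker, at 636 against 146 CPM, and Cadm1, an adhesion molecule, at 63.5 against 13.5. With a C1q sum of 20 in both sets, 6 monocyte and 4 dendritic cell genes were 2-fold lower, and most of the cells with Mmp12 at 0 in the wider set had less C1q.

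Other metalloproteinases went both ways. Of 9 other metalloproteinases, ADAM proteases and inhibitors at the level filter, 1 was 2-fold higher and 2 were lower (median -0.29). Over all 7956 genes, 6.86% were 2-fold higher and 5.2% lower. The higher one, Mmp14, which activates other metalloproteinases at the cell surface, stood at 50.2 against 15.3 CPM in dysentery replicate 1, 27.9 against 23.4 in acupuncture replicate 1 and 9.20 against 8.78 in acupuncture replicate 2, and was at a log2 ratio of 0.79 without cells over 30000 UMIs. Timp1, an inhibitor of metalloproteinases, stood at 47.6 against 106 CPM in dysentery replicate 1. Mmp9, Mmp8 and Mmp13, among others, had no UMI in the 79 cells, but were also under the level filter of 10 CPM with Mmp12 at 0.

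Lysosomal proteases varied with the large cells. Of 18 cathepsin and cystatin genes, 5 were higher and 2 lower (median 0.67, or -0.07 without cells over 30000 UMIs). Lgmn, an asparagine-specific endopeptidase, stood at 700 against 308 CPM and kept a log2 ratio of 1.23 without those cells. The 2 lower ones were Cst7, a cystatin, at 52.9 against 287 CPM, and Napsa, an aspartic protease, at 145 against 711.

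Genes of Trem2-bearing, lipid-laden macrophages were mostly higher as sums. Of 23 members, 15 were 2-fold higher and 2 lower, with a median of 1.89. Without cells over 30000 UMIs, 5 were higher and 5 lower, with a median of 0.37. The 5 that were then higher were Itgax, Clec7a, Axl, Cd63 and Gdf15. Itgax, an integrin chain, stood at 131 against 27.9 CPM and was in 63.3% of cells against 16.4%. Clec7a, a receptor for fungal glucans, stood at 520 against 115 CPM, and Axl, a receptor for apoptotic cells, at 254 against 97.1. Itgax, Clec7a and Axl were higher in both acupuncture libraries too, with Axl at 195 against 61.8 and 166 against 34.9 CPM. In contrast, Trem2 was in 17.7% of Mmp12-high cells and 21.4% of the others in dysentery replicate 1.

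Lipid genes were divided. Of 25 genes of lipid uptake and storage, 8 were higher and 1 lower (median 0.63), and without cells over 30000 UMIs 5 were higher and 4 lower (median 0.24). Abcg1, a cholesterol exporter, stood at 132 against 34.1 CPM, 55.9 against 23.8 and 92.0 against 41.3. Olr1, a receptor for oxidised lipoprotein, stood at 259 against 28.6 CPM, but 146 of its 196 UMIs were in the large cells. Apoe, the lipoprotein ligand, stood at 4530 against 7444 CPM in dysentery replicate 1, 9337 against 21621 in acupuncture replicate 1 and 304 against 25179 in acupuncture replicate 2.

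**Figure D5:**
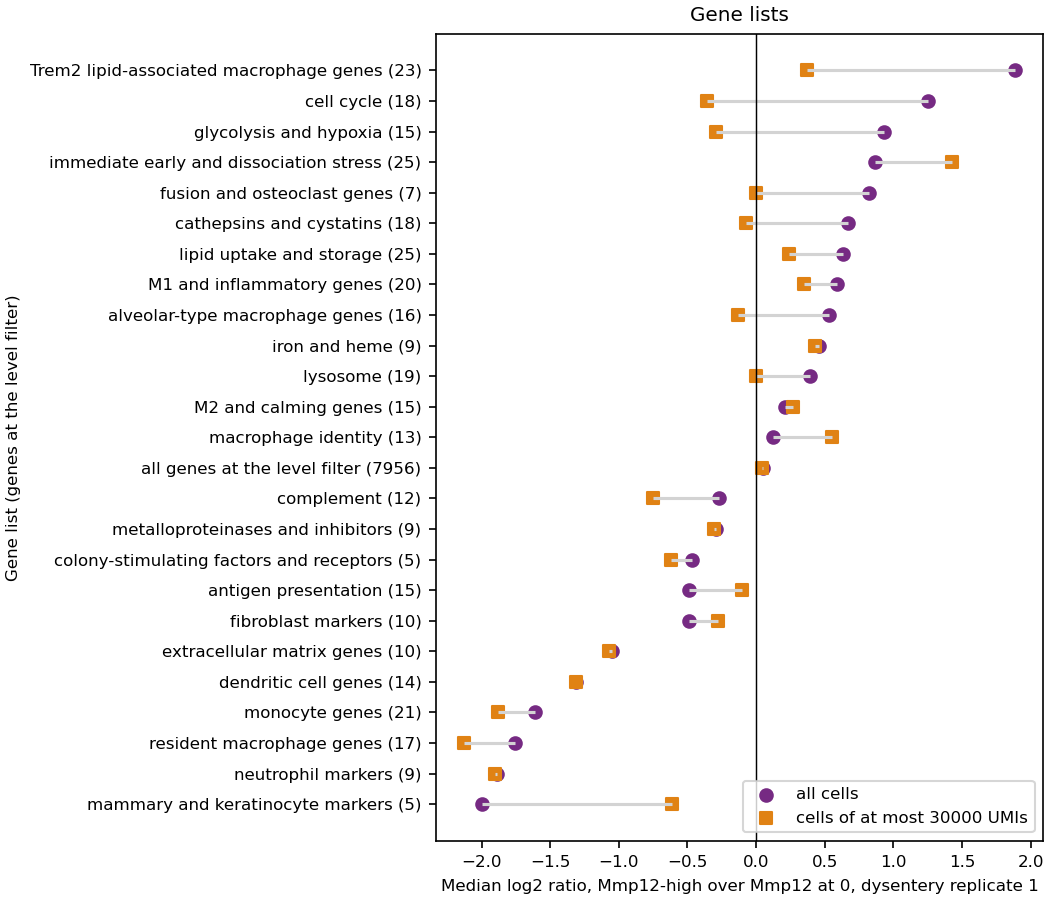
Median log2 ratio (Mmp12-high over Mmp12 at 0, dysentery replicate 1) of each gene list with at least 5 genes at the level filter, for all cells and for cells of at most 30000 UMIs, with the number of genes in parentheses. Trem2, cell cycle and glycolysis lists move towards 0 without the largest cells, and the resident macrophage list stays near -2.

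The cell cycle list behaved the same way in the plot of list medians. Of 18 genes, 11 were higher (median 1.25), and without cells over 30000 UMIs 1 was higher and 1 lower (median -0.36). All 38 Mki67 UMIs and all 49 Ube2c UMIs of the 79 cells were in the large cells. For glycolysis and hypoxia the counts went from 5 of 15 higher to 1.

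Inflammatory genes differed from one another. Of 20 genes listed as M1 or inflammatory, 9 were higher and 1 lower (median 0.59), and without cells over 30000 UMIs 5 were higher and 3 lower (median 0.35). Cxcl16, a membrane-bound chemokine, stood at 399 against 40.6 CPM, 340 against 40.8 and 212 against 36.6, and was in 89.9% of Mmp12-high cells against 22.1% in dysentery replicate 1. Ccl3 stood at 1382 against 417 CPM, 721 against 419 and 1656 against 351. Tnf stood at 313 against 21.4 CPM in dysentery replicate 1, but 218 of its 237 UMIs were in the large cells, and it was at 0 in acupuncture replicate 2. Nos2, the inducible nitric oxide synthase, had 1 UMI in the 79 cells and 78.6 CPM in the others. Il1b stood at 582 against 527 CPM.

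Of 15 genes listed as M2 or calming, 3 were higher and 2 lower (median 0.21). The lower ones were Mrc1 and Cd163. Arg1, arginase, stood at 70.1 against 2.26 CPM, with 50 of its 53 UMIs in the large cells, and Il10 at 30.4 against 22.8 CPM.

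Of 25 immediate early and stress genes, 10 were 2-fold higher and 0 lower (median 0.87), and without cells over 30000 UMIs 17 were higher (median 1.43). The libraries did not share a direction, since the list summed to 36880 against 15700 CPM in dysentery replicate 1, 40850 against 32520 in acupuncture replicate 1 and 28810 against 34070 in acupuncture replicate 2. Jun, a subunit of AP-1, stood at 5525 against 1630 CPM in dysentery replicate 1, 6204 against 4688 in acupuncture replicate 1 and 2594 against 4404 in acupuncture replicate 2. Fos, its partner, stood at 6262 against 2407, 5585 against 4214 and 4673 against 4998. The heat shock gene Hsp90aa1 stood at 2397 against 500 CPM in dysentery replicate 1, and at 973 against 1004 and 920 against 1115 in the acupuncture libraries. These genes also respond to tissue digestion, whose part here was not tested.

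MHC class II genes were lower as sums in dysentery replicate 1 but not in the acupuncture libraries. Of 15 antigen presentation genes, 0 were 2-fold higher and 5, all of class II, were lower (median -0.49), and without cells over 30000 UMIs 0 were lower. Cd74 stood at 11397 against 23105 CPM in dysentery replicate 1, 13493 against 9742 in acupuncture replicate 1 and 27394 against 13590 in acupuncture replicate 2. RT1-Bb, a class II beta chain, stood at 2354 against 5524, 102 against 85.1 and 6071 against 3146 CPM. That gene was low in both sets of acupuncture replicate 1.

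Of 12 complement genes, 0 were higher and 3 lower (Cfd, Cfp and C3). Of 5 colony-stimulating factor genes, Csf1 was higher, at 147 against 19.9 CPM with 100 of its 111 UMIs in the large cells, and Csf3r was lower, with 0 UMIs. Among genes of cell fusion and osteoclasts, Acp5, Ctsk and Atp6v0d2 were 2-fold higher of 7, and 1 was lower (median 0.82, or 0.0 without cells over 30000 UMIs). All 47 UMIs of Atp6v0d2, a subunit of the proton pump, lay in the large cells. Among alveolar-type macrophage genes, 6 of 16 were higher and 4 lower, and without the large cells 3 were higher and 3 lower. Of 9 iron and heme genes, 1 was higher and 1 lower, and of 19 lysosome genes, 2 were higher and 0 lower.

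Summed markers of fibroblasts, neutrophils and vessels were below their level in the other gated cells of the same library, and summed T cell markers were above it. Fibroblast markers summed to 2512 CPM in the Mmp12-high cells of dysentery replicate 1, 4757 and 828 CPM in the acupuncture libraries, and 3554 to 7316 CPM in the cells with Mmp12 at 0 of the 4 libraries, with 0 of 10 genes 2-fold higher. Neutrophil markers summed to 55.2 to 265 CPM against 2268 to 12910 CPM, with Csf3r, Cxcr2, Ltf, Mmp8, Mmp9 and Ngp at 0 in dysentery replicate 1. Adipocyte markers summed to 118 to 1112 CPM against 2150 to 5870, and nearly all of these sums was Cfd, described above. Only 2 adipocyte genes were at the level filter, so no direction is given for the others. Adipoq, Plin1, Lep, Pck1 and Plin4 were at 0 in the Mmp12-high cells of dysentery replicate 1. Adipoq was also at 0 in its cells with Mmp12 at 0. Vascular markers summed to 41.0 to 101 CPM against 146 to 187. Mast cell markers summed to 0 to 9.31 CPM and natural killer cell markers to 42.3 to 79.1. B cell markers stood at 42.3 against 37.9 CPM in dysentery replicate 1 and at 18.6 against 14.0 and 27.6 against 20.7 in the acupuncture libraries. Only 1 B cell gene was at the level filter, at 23.8 against 29.8 CPM in dysentery replicate 1, so no direction is given. Natural killer cell markers were above the other gated cells in both acupuncture libraries, at 79.1 against 21.1 and 46.0 against 26.8 CPM. All 9 UMIs of the marker Nkg7 in acupuncture replicate 1 lay in its 3 cells with mitochondrial shares under 1%. Mammary gland and keratinocyte markers were above them in acupuncture replicate 1, at 586 against 276 CPM. T cell markers summed to 101 to 121 CPM against 38.1 to 65.4, and Cd6 was in 19.0% of Mmp12-high cells of dysentery replicate 1 against 1.05%. Of 4 T cell genes at the level filter, 1 was 2-fold higher there (median 0.52). The gate had held Cd3d, Cd3e and Cd3g at 0 in both sets. The part of other cells' RNA in the ratios was not tested.

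The 41 cells of dysentery replicate 1 with 1 or 2 Mmp12 UMIs had levels near those of the cells above the threshold in several shared genes. They stood at 1371 CPM for Acp5, 1298 for Plau, 461 for Pmepa1, 252 for Tmem119 and 269 for Cx3cr1. In the Mmp12-high cells these genes stood at 1749, 1708, 468, 223 and 307 CPM. Clec10a was not alike, at 256 CPM against 45.0.

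A test of acupuncture within Mmp12-high cells needed 20 such cells in libraries of both groups and could not be run. With the minimum lowered to 10 cells, a choice made after the data were seen, 2 acupuncture libraries were set against 1 dysentery library, which was assumed to vary like the others. edgeR called 0 of 3551 genes (44 at an unadjusted p under 0.05), and DESeq2 called 0 (42 at an unadjusted p under 0.05).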

How the data were processed

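The authors deposited raw UMI counts for each gene in each cell, made with Cell Ranger 6.0.1, which uses STAR, per the submitters' processing notes. These notes name mRatBN7.2 and GRCh38.p13 with no role. Deposited lists of barcodes and features hold only names, and no other measurement. Of 30560 gene rows, 7162 had no symbol and 236 symbols stood on several rows. Cells with at least 300 genes and at most 20% of UMIs from 13 mitochondrial genes were kept. Doublets were kept, and Scrublet scores (scanpy 1.11.5) were used as an alternative, removing 0.8% per 1000 cells.

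UMIs were summed per library and set. Ratios and the count test were tested on simulated data with known changes. Gate sums were tested with edgeR 4.0.16 (TMM, filterByExpr, Benjamini-Hochberg, threshold 0.05) and DESeq2 1.42.0 as an alternative. Shares were tested by exact permutation over libraries. Named genes are members of the gene lists and the 15 highest and 10 lowest ratios among genes with a symbol, at 50 CPM or more in either set and not used by the gate. Members and lists were chosen with earlier results of these data known. Alternatives changed the Mmp12 threshold (5), the macrophage sum (50), the mitochondrial limit (10%), doublets, added CPM (1 and 50), depth, level filter, scaling and libraries. Further ones were chosen after seeing the data: cells of at most 30000 UMIs, a C1q sum of 20, means of cells and libraries with 10 cells. A gene of these lists is not reported here.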

Additional observations from a re-analysis of the deposited data

How the results depend on the processing

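The share difference ran from -3.84 points without dysentery replicate 2 to a reversed 0.446 points without dysentery replicate 1 and moved to -5.33 points in a gate limited to a C1q sum of 20. The Mmp12 difference over the gate reversed to 5.59 without dysentery replicate 1, the top of its range over alternatives (-3.57 to 5.59). Samples that share a replicate number correlated at 0.049 in their deviations over 12992 genes. A correlation over all genes cannot show whether they shared a batch or preparation, which was not tested. With the replicate block the Mmp12 difference was -0.655 (adjusted p = 0.873, edgeR), and gate calls went from 338 to 0 (2497 genes at an unadjusted p under 0.05, edgeR). Gate calls were also 0 without acupuncture replicate 1 or 2 (1947 and 1605 at an unadjusted p under 0.05), 488 without dysentery replicate 2, 1114 without dysentery replicate 1, 516 at a macrophage sum of 50, 863 without Scrublet doublets, 1116 with no count filter and 1324 with DESeq2. Leaving out dysentery replicate 1 leaves no library with 20 Mmp12-high cells, so it gives no ratio. The counts of 546 higher and 414 lower genes became 183 and 122 with 50 CPM added, 985 and 717 with 1 CPM added, and 77 and 99 over every library with 10 cells. Lower genes numbered 632 with means of cells and 622 with a C1q sum of 20 and at most 30000 UMIs. Ratios that reversed with at most 30000 UMIs were Spp1 (-0.20), Ctsk (-0.53), Ctsd (-0.29) and Fabp4 (-1.46), and with the C1q sum as well Spp1 (-0.93), Ctsk (-0.63), Ctsd (-1.31), Rgcc (-0.46) and Fabp4 (-2.72). No cause was tested. The planned tests within Mmp12-high cells and of their interaction were not run.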

Other observations

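Combinations of the shared genes were counted with Mmp12 set aside, and both were chosen after values were seen. Gated cells with a UMI of Tmem119, Acp5 and Cx3cr1 numbered 74 in dysentery replicate 1 (4.02% of the gate, 95% Clopper-Pearson interval 3.17 to 5.02%), 2 in dysentery replicate 2, 2 in acupuncture replicate 1 and 5 in acupuncture replicate 2. Of the 74, 42 were Mmp12-high, 18 had 1 or 2 Mmp12 UMIs and 14 had none. All 7 in the acupuncture libraries were Mmp12-high. The 14 cells with none stand in the set that the Mmp12-high cells were compared with. With Acp5, Plau, Pmepa1 and Cx3cr1 as the combination, 95 cells of dysentery replicate 1 had all 4, of which 51 were Mmp12-high, 20 had 1 or 2 Mmp12 UMIs and 24 had none. Acupuncture replicate 1 had 11 such cells, 8 of them Mmp12-high and 3 with Mmp12 at 0. Acupuncture replicate 2 had 3, all Mmp12-high, and dysentery replicate 2 had 0.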
